A study of Sus scrofa with 6 samples.

Results

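KIT, EDN1, ECE1 and HGF, 4 of the 14900 mRNAs listed for the skin of Bama pigs, encode a receptor and secreted or processing factors that are known to support melanocytes. They were chosen by identifier for that role (KIT ENSSSCG00000008842, EDN1 ENSSSCG00000035598, ECE1 ENSSSCG00000003513 and HGF ENSSSCG00000015403), and each had a row in all 6 samples. The study had itself counted them among the genes lower in white skin of these same samples, so their direction here is not independent evidence. RNA-seq of poly(A) RNA was run on skin cut to a depth of 8 mm, white on the back and black on the buttock, from 3 adult female pigs 2 years old that each gave 1 white and 1 black sample (n = 3 per skin). No treatment is named for the pigs, which belong to a breed with a black head and rump and a white body between them. Skin color and body site changed together in every comparison, so the effect of color cannot be told apart from that of the site. All values are FPKM (fragments per kilobase of transcript, scaled to the mapped reads of the sample), which the authors calculated and deposited without counts, so the number of reads behind a value is unknown.

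Melanocytes arise from the neural crest, migrate to the skin and depend there on signals from their neighbours. KIT is the receptor tyrosine kinase that binds stem cell factor (KITLG) from keratinocytes and fibroblasts, and melanocyte precursors need it to migrate and survive. Mast cells also depend on KIT, and structural variants at KIT underlie dominant white and belted coats in pigs. Endothelin 1 (EDN1) is a peptide from endothelial cells and keratinocytes, which the membrane protease ECE1 cuts from an inactive precursor and which acts through the receptors EDNRA and EDNRB. HGF is made by fibroblasts and other mesenchymal cells as an inactive precursor, is activated by proteases and acts through the receptor MET.

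The identity of the skins was checked with marker genes. Of 10 measured melanocyte markers, 5 were lower in white skin past both thresholds used here, 0.05 for the adjusted p and 1 for the size of the log2 fold change. These were PMEL, TYRP1, MLANA, DCT and TRPM1, with log2 fold changes of -5.30, -4.06, -3.68, -3.02 and -1.97. The FPKM of the 10 markers summed to between 6.92 and 10.6 in the white samples and between 42.1 and 191 in the black samples. The highest of these sums was that of black sample 1, where PMEL had an FPKM of 103, against 15.2 in each of black samples 2 and 3. TYRP1, MLANA, TRPM1, SLC24A5 and TYR were listed at 0 in at least 1 white sample. TYR had FPKM of 6.93, 0.49 and 0 in black skin, so it was also at 0 in black sample 3 and overlapped between the skins. Log2 fold changes are those of white against black skin on the scale of log2(FPKM + 0.5), from limma fitted over all 14900 mRNAs, so that values below 0 are lower in white skin, and the scale understates the change of genes with low FPKM. Over all mRNAs the median log2 fold change was -0.31, and it was -0.03 after quantile normalization and -0.13 after upper-quartile scaling, so changes are also given relative to this median. Both thresholds were passed by 930 mRNAs (6.24%), of which 539 (3.62%) were lower and 391 (2.62%) higher in white skin. After quantile normalization 217 (1.46%) were lower and 483 (3.24%) higher, and after upper-quartile scaling 294 (1.97%) were lower and 558 (3.74%) higher.

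All of KIT, EDN1, ECE1 and HGF were lower in the white than in the black skin of each of the 3 pigs, and their mean FPKM in black skin was between 2.74 and 3.78 times that in white skin. In none of the 4 did the white samples overlap the black samples (exact permutation test for each gene, two-sided, with a p of 0.1, which is the lowest that 3 against 3 samples can reach). Among all mRNAs, 25.7% had every white value below every black value, and 41.6% were lower in white skin in all 3 pigs. KIT alone of the 4 passed both thresholds, against 3.62% of all mRNAs called lower in white skin. The other 3 had adjusted p between 0.0506 and 0.0812 (limma, by Benjamini-Hochberg) and missed the threshold. When limma blocked on the pig, KIT, ECE1 and HGF passed and EDN1 did not, against 6.42% of all mRNAs called lower in white skin. After upper-quartile scaling KIT alone passed, against 1.97%, and after quantile normalization none of the 4 did, against 1.46%. All 4 then had an unadjusted p below 0.05 in limma. The share of all mRNAs with such a p was not counted after quantile normalization, so nothing is concluded from that count. In whole skin, fewer cells of a type and less RNA per cell cannot be told apart.

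**Figure D1:**
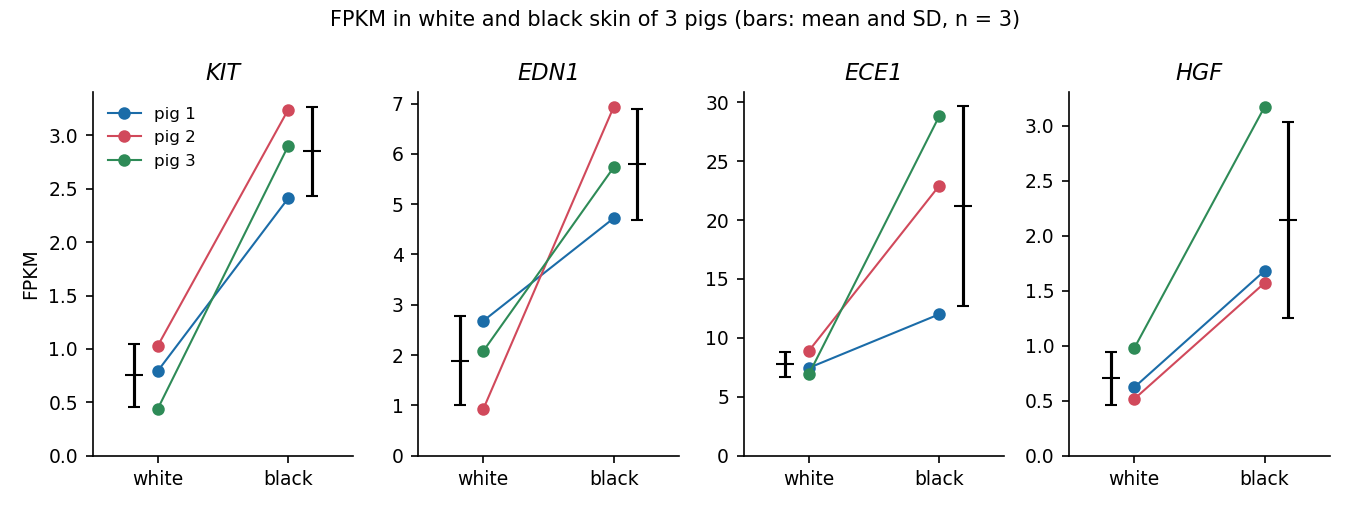
FPKM (vertical axes, each starting at 0) of KIT, EDN1, ECE1 and HGF in white and black skin, with a line joining the samples of each of the 3 pigs and bars for the mean and SD of each skin (n = 3). Every line rises from white to black, from 0.44 to 1.03 against 2.41 to 3.24 for KIT, and the black samples of ECE1 are the most spread, from 12 to 28.8.

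KIT lies on chromosome 8 of Sscrofa11.1, at chr8:41402334-41492306 in RefSeq. KIT had FPKM of 0.794, 1.03 and 0.44 in the white skin of pigs 1, 2 and 3, and of 2.41, 3.24 and 2.90 in their black skin. The lowest black sample was 2.35 times the highest white sample, and pig 2 was highest and pig 3 lowest among the white samples. White sample 3 was under the FPKM of 0.5 that the authors asked of at least 1 sample. The mean FPKM was 0.753 ± 0.295 (SD, n = 3) for white skin and 2.85 ± 0.415 for black skin, so that white skin held 26.4% of the level of black skin. The log2 fold change was -1.44 (SE 0.29, 95% interval -2.12 to -0.76, limma, Benjamini-Hochberg adjusted p = 0.0329), which is -1.13 relative to the median of all mRNAs. KIT was no longer past the threshold after quantile normalization, at -1.04 (adjusted p = 0.105) or -1.01 relative to the median. Leaving out any 1 sample other than black sample 1 also ended the call, with adjusted p between 0.0757 and 0.107, and over all alternatives the adjusted p ran from 0.0319 to 0.107.

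The within-pig fold of KIT, black over white, was 3.04, 3.16 and 6.58 in pigs 1, 2 and 3. Pig 3 had the largest fold, with the lowest white sample and a black sample between the other 2. Ranked among the 14900 mRNAs of a sample, KIT stood between percentiles 9.56 and 23.4 of FPKM in white skin and between percentiles 30.1 and 35.2 in black skin. Its transcript was therefore among the less abundant in both skins. The study also measured genes by qPCR, which was not analysed here. The primers it designed for KIT, of 17 bases each and with 58.8% and 52.9% G or C, are shown because they define the part of the transcript that such an assay reads.
KIT forward: gtctccaccatccatcc
KIT reverse: ctctgctttctccacga

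EDN1 lies at chr7:8752018-8758354 of the same build. EDN1 had FPKM of 2.68, 0.927 and 2.08 in the white skin of pigs 1, 2 and 3, and of 4.72, 6.93 and 5.73 in their black skin. Pig 2 held both the lowest white and the highest black sample. The lowest black sample was 1.76 times the highest white sample. The mean FPKM was 1.89 ± 0.890 (SD, n = 3) for white skin and 5.79 ± 1.10 for black skin, and white skin held 32.7% of the level of black skin. The log2 fold change was -1.46 (SE 0.35, 95% interval -2.27 to -0.64, limma, Benjamini-Hochberg adjusted p = 0.0506), or -1.15 relative to the median. EDN1 thus had a fitted change of the size of that of KIT and narrowly missed the threshold. It passed with a pseudocount of 1, without limma's trend and after a filter on mean FPKM, and over all alternatives its adjusted p ran from 0.0469 to 0.168.

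The within-pig fold of EDN1, black over white, was 1.76, 7.47 and 2.75. The spread between pigs came largely from pig 2, and without white sample 2 the log2 fold change of EDN1 was -1.12. EDN1 stood between percentiles 22.1 and 37.9 of FPKM in white skin and between percentiles 45.2 and 53.8 in black skin. The study's qPCR primers for EDN1, of 20 bases each and with 55% and 60% G or C, are given for the same reason as those for KIT.
EDN1 forward: ccagtgtgccagccaaaaag
EDN1 reverse: gggacgagatggcttcagac

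ECE1, the protease that releases active endothelin, lies at chr6:79408322-79465827. ECE1 had FPKM of 7.45, 8.89 and 6.90 in the white skin of pigs 1, 2 and 3, and of 12, 22.9 and 28.8 in their black skin. The white samples lay close together, and black sample 1 was much nearer to them than the other black samples. The lowest black sample was 1.35 times the highest white sample, the narrowest separation of the 4 genes. The mean FPKM was 7.75 ± 1.03 (SD, n = 3) for white skin and 21.2 ± 8.52 for black skin, with white skin at 36.5% of black skin. The log2 fold change was -1.32 (SE 0.33, 95% interval -2.09 to -0.55, limma, Benjamini-Hochberg adjusted p = 0.0551), or -1.01 relative to the median. ECE1 passed the threshold when limma blocked on the pig (adjusted p = 0.0451) and without black sample 1 (log2 fold change -1.67, adjusted p = 0.0301), and over all alternatives the adjusted p ran from 0.0301 to 0.156.

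Within pigs, ECE1 was 1.61, 2.58 and 4.17 times higher in black than in white skin of pigs 1, 2 and 3. ECE1 had the highest FPKM of the 4 genes in all 6 samples. It stood between percentiles 58.7 and 66.8 in white skin and between percentiles 70.2 and 86.9 in black skin. FPKM are per length of transcript, so the levels of ECE1 and of its substrate precursor can be set side by side. The ratio of ECE1 to EDN1 in FPKM was 2.78, 9.59 and 3.32 in white skin and 2.54, 3.31 and 5.03 in black skin, and the skins overlapped.

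HGF lies at chr9:98437771-98513573, where RefSeq also lists an overlapping lncRNA gene, LOC110255496. HGF had FPKM of 0.621, 0.515 and 0.977 in the white skin of pigs 1, 2 and 3, and of 1.68, 1.57 and 3.17 in their black skin. Pig 3 was the highest of the 3 in both skins. The lowest black sample was 1.60 times the highest white sample. The mean FPKM was 0.704 ± 0.242 (SD, n = 3) for white skin and 2.14 ± 0.893 for black skin, with white skin at 33.0% of black skin. The log2 fold change was -1.10 (SE 0.33, 95% interval -1.86 to -0.34, limma, Benjamini-Hochberg adjusted p = 0.0812), or -0.79 relative to the median. HGF was called when limma blocked on the pig (adjusted p = 0.0490) and under no other of the alternatives tried, over which the adjusted p ran from 0.0490 to 0.257.

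The within-pig fold of HGF, black over white, was 2.70, 3.04 and 3.24 in pigs 1, 2 and 3, the closest agreement between pigs among the 4 genes. HGF stood between percentiles 14.8 and 18.8 of FPKM in white skin and between percentiles 22.3 and 31.9 in black skin. In order of FPKM, ECE1 came before EDN1, EDN1 before KIT and KIT before HGF in white sample 1 and in black samples 1 and 2. In both samples of pig 3 HGF stood above KIT, and in white sample 2 KIT stood above EDN1. ECE1 was above EDN1 in all 6 samples, while KIT and HGF overlapped in both skins, as did KIT and EDN1 in white skin.

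Whether some of the 4 genes changed more than others was tested within samples. For each of the 6 pairs, the difference of their log2 values was compared between white and black samples with an exact permutation test, two-sided. The difference in change ran from -0.36 log2 units for EDN1 minus HGF to 0.02 for KIT minus EDN1. In mean FPKM, black over white, EDN1 and HGF had nearly the same fold, 3.06 and 3.03. The pseudocount shrinks the change of HGF more, as its FPKM are lower. White and black samples overlapped in all 6 pairs, with exact permutation p between 0.5 and 1 (1 for every pair after Benjamini-Hochberg adjustment). With 3 samples against 3 this test cannot go below 0.1, and it does not pair the samples by pig. Paired by pig, KIT minus HGF was lower in white skin each time (0.21, 0.59 and -0.65 against 0.42, 0.86 and -0.11). An exact test that flips the sign of the difference within each pig gave p = 0.25, the lowest that 3 pairs can reach. For the other pairs of genes these sign flips gave p of 0.75 or more.

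**Figure D2:**
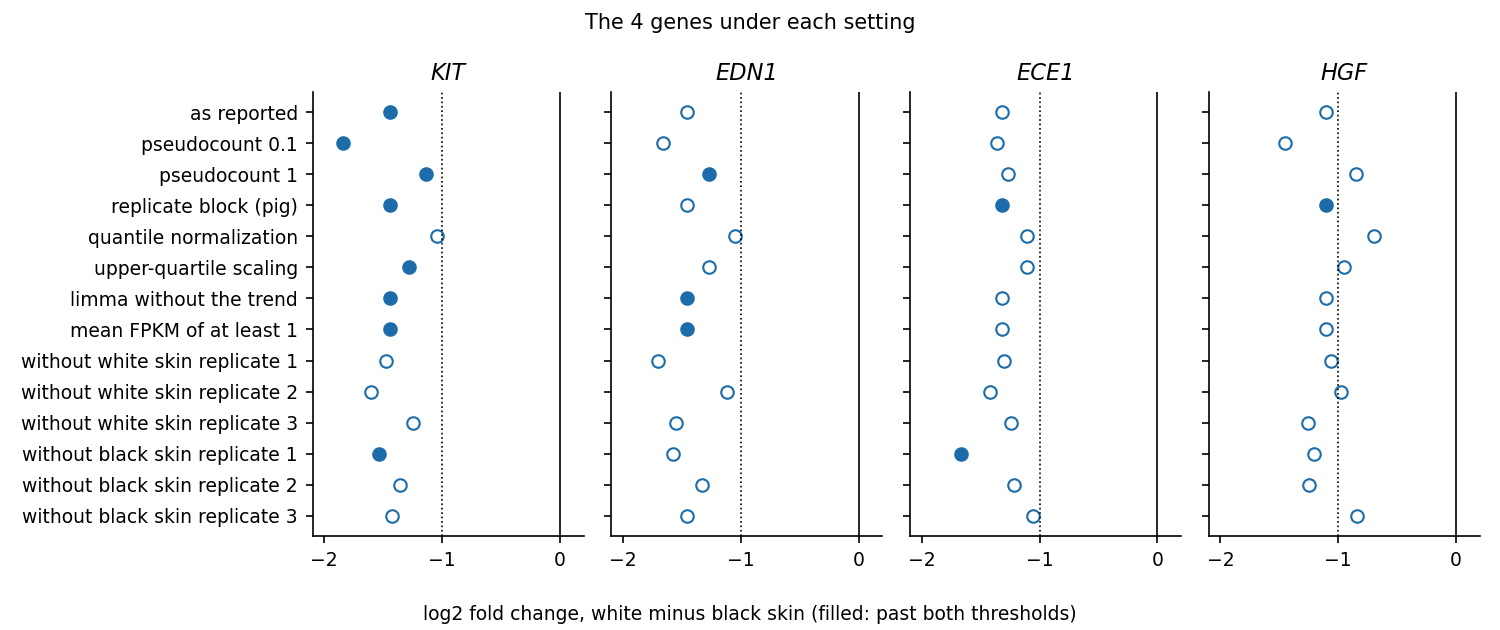
Log2 fold change (horizontal axes, white minus black skin) of KIT, EDN1, ECE1 and HGF as reported and under 13 alternatives, 1 per row, with filled points past both thresholds and a dotted line at -1. All points lie below 0, the point of KIT is open after quantile normalization and under 5 of the 6 settings that leave out a sample, and that of HGF is filled under the block for the pig only.

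The ligands and receptors of the same 3 systems were then set beside the members; these partners were picked for their role with their values known. KITLG, the ligand of KIT, had FPKM of 2.18, 1.53 and 5.01 in white skin and 4.96, 5.21 and 9.26 in black skin. It was lower in the white skin of all 3 pigs, but white sample 3 was above black sample 1. The log2 fold change of KITLG was -1.11 (95% interval -2.09 to -0.14, limma, Benjamini-Hochberg adjusted p = 0.134), and it was called in the fit that blocked on the pig. The change of KIT minus that of KITLG was -0.33 log2 units, with overlapping skins (exact permutation test, p = 0.8).

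The levels of the endothelin receptors overlapped between the skins, unlike those of EDN1. EDNRA, the receptor on mural cells and fibroblasts, had FPKM of 5.50, 6.07 and 5.41 in white skin and 4.51, 7.37 and 8.01 in black skin. EDNRB, the receptor that melanocytes and endothelial cells use, had 4.09, 6.69 and 3.98 in white skin and 4.61, 3.61 and 6.35 in black skin. EDNRA had its lowest and its highest sample both in black skin, and EDNRB had its highest sample in white and its lowest in black skin. Their log2 fold changes were -0.18 (95% interval -0.81 to 0.46) for EDNRA and 0.01 (-0.71 to 0.73) for EDNRB, and that of EDNRA was above 0 after quantile normalization (0.15) and upper-quartile scaling (0.03). Compared within samples, the change of EDN1 minus that of EDNRA was -1.28 log2 units and minus that of EDNRB -1.47. The skins did not overlap for either (exact permutation test, p = 0.1 each, the smallest possible, and 0.2 after adjustment over the 4 pairs of this kind). That test does not pair the samples by pig. An exact test that flips the sign of the difference within each pig gave p = 0.25 for each, the lowest that 3 pairs can reach. In log2 units, EDN1 minus EDNRA was -0.92, -2.20 and -1.19 in white skin and 0.06, -0.08 and -0.45 in black skin. Black samples 1 and 2 thus held EDN1 and EDNRA at about the same level, and every white sample held less EDN1 than EDNRA.

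The other endothelin ligands were also measured. EDN2 had FPKM of 0.592, 0 and 2.57 in white skin and 1.93, 2.34 and 1.99 in black skin, and EDN3, the endothelin that melanoblasts need during development, stayed between 0 and 0.725 in all 6 samples. EDN1 had a higher FPKM than EDN3 in every sample, and a higher FPKM than EDN2 in every sample except white sample 3.

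MET, the receptor of HGF, had FPKM of 5.89, 6.93 and 5.19 in white skin and 4, 7.98 and 4.09 in black skin. The black samples of MET lay on both sides of the white samples. Its log2 fold change was 0.21 (95% interval -0.52 to 0.94). Within samples, the change of HGF minus that of MET was -1.31 log2 units, and the skins overlapped, with the black sample of pig 2 below the white sample of pig 3 (exact permutation test, p = 0.2, and 0.267 after adjustment). Of the proteases that can activate HGF, HGFAC and PLG had no named row, and the other 3 and their inhibitors did not pass the thresholds. The log2 fold changes were -0.86 for PLAU (urokinase), -0.74 for HPN (hepsin) and 0.01 for ST14 (matriptase), and -0.19 and 0.65 for the inhibitors SPINT1 and SPINT2. SPINT2 had FPKM of 165, 146 and 130 in white skin and 80.5, 121 and 82.4 in black skin, with every white sample above every black sample but a Benjamini-Hochberg adjusted p of 0.118 in limma, where 9.62% of all mRNAs had such a separation. PLAU had 11.7, 7.07 and 8.12 in white skin and 15.2, 13.8 and 20.9 in black skin. Every white sample of PLAU was below every black sample (limma, adjusted p = 0.0915), as in 25.7% of all mRNAs.

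**Figure D3:**
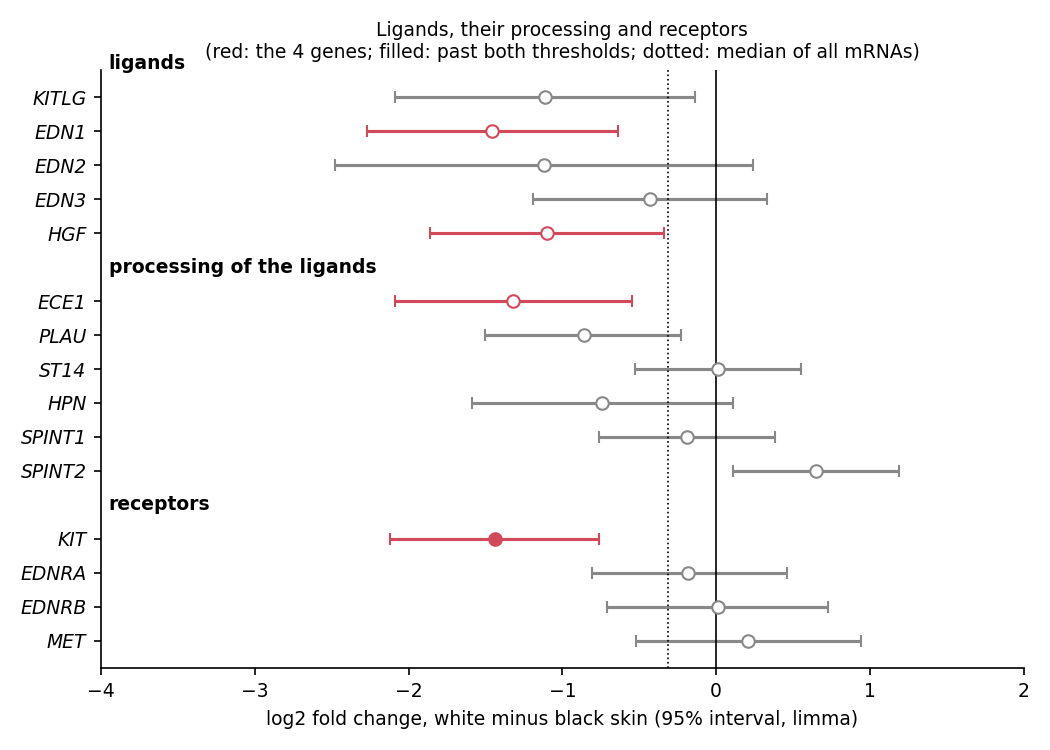
Log2 fold change (horizontal axis, white minus black skin) with its 95% interval from limma for ligands, for proteases and inhibitors that process them, and for receptors, with the 4 genes in red, filled points past both thresholds and a dotted line at the median of all mRNAs (-0.31). The intervals of EDN1, ECE1, KIT and HGF lie below 0, and those of EDNRA, EDNRB and MET span 0.

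The wider pathways were described from lists of genes with a known role in them. Their counts are read against those of all mRNAs, of which 3.62% were called lower and 2.62% higher in white skin, 69.1% had a log2 fold change below 0 (52.4% after quantile normalization, 58.7% after upper-quartile scaling) and 28.4% had an unadjusted p below 0.05. Of 25 genes that act with or downstream of KIT, all were measured, 6 passed both thresholds, all of them lower in white skin, and 24 had a log2 fold change below 0 (22 after either scaling), with a median of -1.03 beside -0.31 for all mRNAs. Among them were SPRY1 and SPRY4 (log2 fold change -2.35 and -1.52), feedback inhibitors of receptor tyrosine kinase signalling, PLCG1 (-1.40), a phospholipase recruited to active receptors, and the ETS factors ETV5 (-1.26) and ETV1 (-1.25). ETV4, a further ETS factor of the list, was the gene of the 25 not below 0, at 0.03, and it overlapped between the skins. SPRY1 had FPKM of 0.531, 2.65 and 4.71 in white skin and 10.1, 10.7 and 18.4 in black skin. No white sample of SPRY1 reached a black sample. With the pig as a block 9 of the 25 were called lower, against 6.42% of all mRNAs, with KITLG, MITF and SNAI2 in addition. After quantile normalization only PLCG1 of the 25 remained past both thresholds, against 1.46% of all mRNAs called lower. The median of the list was then -0.68 beside -0.03 for all mRNAs. MITF, the transcription factor of the melanocyte lineage whose activity KIT signalling changes, had FPKM of 5.06, 4.82 and 6.67 in white skin and 16.2, 8.27 and 15.7 in black skin (limma log2 fold change -1.16, Benjamini-Hochberg adjusted p = 0.064).

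Of 14 further endothelin genes 13 were measured, and 2 passed both thresholds in opposite directions. NOS3, the nitric oxide synthase of endothelial cells that endothelin signalling can switch on, had FPKM of 1.21, 1.14 and 1.37 in white skin and 5.17, 17.0 and 16.9 in black skin (limma log2 fold change -2.79, Benjamini-Hochberg adjusted p = 0.0192). PLCB4, a phospholipase C that receptors coupled to Gq proteins activate, had FPKM of 26.9, 42.6 and 33.0 in white skin and 4.67, 6.20 and 9.41 in black skin (limma log2 fold change 2.28, Benjamini-Hochberg adjusted p = 0.0124). NOS3 and PLCB4 both remained past the thresholds after quantile normalization. PLCB1, of the same family, had FPKM of 0.664, 0.596 and 2.68 in white skin and 3.69, 4.02 and 5.30 in black skin (limma log2 fold change -1.59, Benjamini-Hochberg adjusted p = 0.0683). The median of the endothelin list was -0.40, close to that of all mRNAs. Of the 11 genes of the HGF list 9 were measured and 0 passed both thresholds in limma, also with the pig as a block, while 4 had an unadjusted p below 0.05, against 28.4% of all mRNAs, and the median was -0.42.

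Other factors known to act on melanocytes numbered 19, of which 13 had a row. BMP2 and BMP4, growth factors that affect melanocyte differentiation, were called lower in white skin, with log2 fold changes of -1.82 and -1.77, against 3.62% of all mRNAs. The other 11 did not pass the thresholds. Over all 5 pathway lists together, 13 of 69 measured genes were called lower and 1 higher in white skin, against 3.62% and 2.62% of all mRNAs. After quantile normalization 3 were lower and 1 higher, against 1.46% and 3.24%, after upper-quartile scaling 6 were lower, against 1.97%, and without white sample 2 limma called 0 of the 69, of which 28 had an unadjusted p below 0.05, as did 18.1% of all mRNAs.

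KIT lies between PDGFRA and KDR, genes for related receptor tyrosine kinases, with PDGFRA at chr8:40966568-41021440, 380.9 kb before KIT, and KDR at chr8:41809116-41856379, 316.8 kb after it. PDGFRA, a receptor of fibroblasts, had FPKM of 1.22, 1.05 and 2.07 in white skin and 6.08, 3.39 and 16.1 in black skin (limma log2 fold change -1.98, Benjamini-Hochberg adjusted p = 0.0585). KDR, a receptor of endothelial cells, had FPKM of 2.03, 3.52 and 1.61 in white skin and 5.16, 11.3 and 14.9 in black skin (limma log2 fold change -1.86, Benjamini-Hochberg adjusted p = 0.044). As for KIT, neither neighbour overlapped between the skins, and 25.7% of all mRNAs had every white value below every black value. Relative to KIT, PDGFRA was lower in white skin by 0.54 log2 units and KDR by 0.43, with overlapping skins in both (exact permutation test, p = 0.6 and 0.4). Of 10 measured KIT-like receptors and ligands of this family, which include both neighbours, 4 were called lower in white skin. Beside KDR these were PDGFRB (log2 fold change -1.95), PDGFB (-1.52) and PDGFD (-1.25), against 3.62% of all mRNAs, and all 10 had a log2 fold change below 0, against 69.1%. After quantile normalization, and also after upper-quartile scaling, 1 of the 10 was called lower, against 1.46% and 1.97% of all mRNAs.

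No lncRNA of the deposited table lay within 100 kb of KIT, EDN1 or HGF, and 3 lay within 100 kb of ECE1. TCONS_00092814, 20.5 kb from ECE1, was listed at 0 in all white samples and at 0.541, 0.09 and 0 in the black samples. TCONS_00086758 and TCONS_00086759, 87.6 and 96.8 kb away, ranged over all 6 samples from 0.309 to 0.962 and from 0.468 to 1.19, and both overlapped between the skins. None of the 3 showed the separation between skins that ECE1 did.

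Several of the cells known to make or carry these factors also had lower marker levels in white skin, and their part in the results for the 4 genes was not tested. Endothelial markers, set beside EDN1 and ECE1, numbered 11 measured of 13, of which PECAM1 (log2 fold change -1.90), CDH5 (-1.87), KDR (-1.86) and ENG (-1.81) were called lower, against 3.62% of all mRNAs. Of the 11, PECAM1 and ENG were called after quantile normalization, against 1.46% of all mRNAs, and 7 when limma blocked on the pig, against 6.42%. The FPKM of the 11 summed to 109 to 122 in white and 190 to 518 in black skin. Fibroblast markers, set beside HGF, numbered 7 of 8, of which DCN (-1.56) and FBLN1 (-1.51) were called lower, against 3.62% of all mRNAs. The FPKM of the 7 summed to 2280 to 4834 in white and 6005 to 10326 in black skin. Mast cell markers, set beside KIT, numbered 4 of 9 and 0 were called in limma, with 3 at an unadjusted p below 0.05 (28.4% of all mRNAs) and 4 with a log2 fold change below 0 (69.1% of all mRNAs), at -1.40 for MS4A2, -0.42 for HDC, -0.80 for FCER1A and -1.72 for GATA2, with sums of 3.72 to 5.75 in white and 7.52 to 20.3 in black skin. No mast cell or endothelial marker was listed at 0 in a white sample.

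Within samples, each gene was compared with the mean log2 value of the markers of its cell. The change of KIT was 0.90 log2 units above that of the melanocyte markers (exact permutation test, two-sided, p = 0.3). Of the 10 melanocyte markers, 5 were listed at 0 in at least 1 white sample, and the pseudocount limits their fall on this scale. The size of this difference therefore depends on the pseudocount, at 1.59 with 0.1 and 0.71 with 1. The change of KIT minus that of the mast cell markers was -0.35 (exact permutation test, two-sided, p = 0.4). EDN1 and ECE1 differed from the endothelial markers by 0.04 and 0.18 log2 units (exact permutation test, p = 1 and 0.4). The change of HGF was 0.38 above that of the fibroblast markers (exact permutation test, p = 0.4). In all 5 comparisons the skins overlapped and adjusted p lay between 0.5 and 1.

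**Figure D4:**
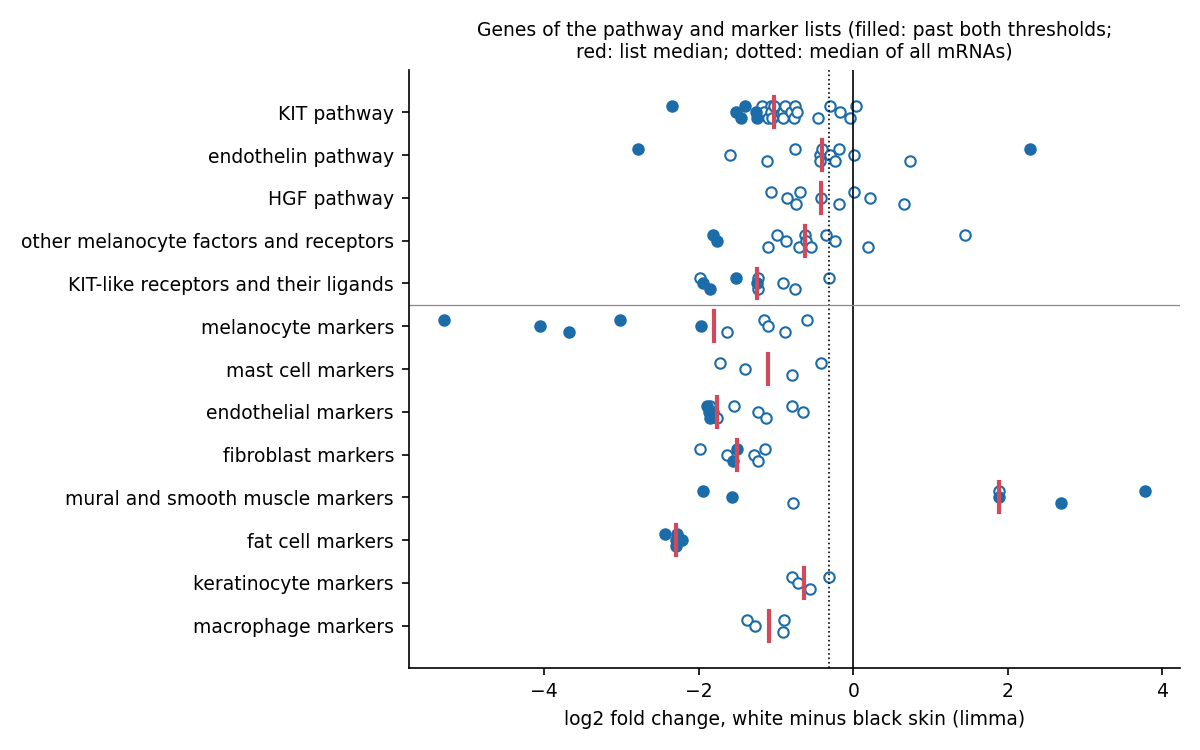
Log2 fold change (horizontal axis, white minus black skin) of each measured gene of 5 pathway lists and 8 marker lists, with filled points past both thresholds, red bars at the median of a list and a dotted line at the median of all mRNAs (-0.31). The KIT list has its median at -1.03 and the endothelin and HGF lists at -0.40 and -0.42. Every marker list but that of mural and smooth muscle has its median left of the dotted line, and muscle markers reach 3.77.

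Markers of other cells were also read, of which those of fat and muscle held calls and those of keratinocytes and macrophages did not. All 5 fat cell markers were called lower in white skin, against 3.62% of all mRNAs. After quantile normalization 4 were called, against 1.46%, and after upper-quartile scaling 2, against 1.97%. The log2 fold changes were -2.44 for CIDEC, -2.30 each for ADIPOQ and FABP4, -2.28 for PLIN1 and -2.22 for LEP. The 5 summed to 128 to 481 in white and 785 to 1803 in black skin. DES (log2 fold change 3.77), MYH11 (2.69) and TAGLN (1.88), contractile genes of muscle, were called higher in white skin, against 2.62% of all mRNAs. RGS5 (-1.57) and PDGFRB (-1.95) of mural cells were called lower, against 3.62%. After quantile normalization DES and PDGFRB alone of these kept the call, and the 7 genes of this list summed to 3386 to 5245 in white and 535 to 1504 in black skin. Of 4 measured keratinocyte markers limma called 0, also 0 at an unadjusted p below 0.05 (28.4% of all mRNAs), at -0.32 for KRT1, -0.72 for KRT10, -0.80 for DSG1 and -0.56 for KRT15. Of 4 macrophage markers it called 0 (1 at an unadjusted p below 0.05, against 28.4% of all mRNAs), at -1.27 for CD163, -1.37 for CD14, -0.91 for CSF1R and -0.90 for PTPRC. The FPKM of all mRNAs summed to between 408598 and 501424, with a median of 4.46 to 4.96 in white and 5.65 to 6.70 in black skin. The part of these differences in the values of KIT, EDN1, ECE1 and HGF was not tested.

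For each of the 4 genes, the 3 named mRNAs with the nearest profile were found among 12413, by the root mean square difference of log2(FPKM + 0.5) over the 6 samples after subtracting each gene's mean. Nearest to KIT were SBNO2 (0.0757), ASPN (0.0863) and MLLT3 (0.126). Nearest to EDN1 were TIMP1 (0.121), FUT8 (0.14) and HIPK1 (0.155), which shared its low white sample 2. Nearest to ECE1 were NR2F2 (0.0777), RBMS2 (0.108) and TRPC6 (0.116), all with black sample 1 nearest to the white samples. Nearest to HGF were ORAI1 (0.0426), MYC (0.0680) and SPEN (0.0743), which were highest in pig 3 in both skins. Between the 4 genes themselves the measure ran from 0.320 for KIT and ECE1 to 0.524 for EDN1 and ECE1, and ECE1 was the 207th nearest mRNA to KIT. The genes that lie nearest each of the 4 by this description were therefore not the other 3, and 6 samples from 2 skins leave many mRNAs with a like profile.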

How the data were processed

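RNA-seq of poly(A) RNA was deposited for 3 white and 3 black skin samples. According to the study, TopHat aligned the reads to Sscrofa11.1, whereas the submitters' processing notes name HISAT2 2.0.4, CASAVA 1.8.2, StringTie 1.3.3 and Cufflinks 2.2.1. The authors calculated FPKM with StringTie from strand-specific libraries and kept mRNAs above 0.5 and lncRNAs above 0.1 in at least 1 sample, and these deposited FPKM hold no counts, so the depth is unknown. Groups and pig numbers came from the sample titles.

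The skins were compared by limma 3.58.1 (R 4.3.3, trend option) on log2(FPKM + 0.5) over 14900 mRNAs, with Benjamini-Hochberg adjustment, without the pig as in the study, and with it as a block. The model was tested on simulated data. Without the pig, the p-values of limma set the difference between the skins against the spread among these samples of a skin. With the pig as a block, they set it against the spread left within these pigs. The titles number the white and the black samples from 1 to 3, and equal numbers were taken to mean the same pig. Deviations from the mean of a skin correlated across mRNAs between samples of equal number (r = 0.208, 0.360 and 0.204). Between samples of different numbers r ran from -0.312 to 0.12. These correlations alone do not prove that a number stands for a pig. Single values and within-sample differences were tested with exact permutation tests, and the differences also with sign flips within pigs. These tests ran in Python 3.11.15 with SciPy 1.17.1, NumPy 2.4.6 and pandas 2.3.3, and plots were drawn with matplotlib 3.10.9. Names for 12414 of 14900 identifiers (83.3%) came from a name table (12236) or the study's gene lists (178), and positions from RefSeq for Sscrofa11.1. The members and the lists were chosen with earlier results of these data known. Genes named are the 4 members, PDGFRA and KDR, genes of the lists past both thresholds or in lists of at most 6 named genes, and the 3 nearest profiles per member, apart from items not reported here. KITLG, EDN2, EDN3, EDNRA, EDNRB, MET, PLAU, HPN, ST14, SPINT1, SPINT2, MITF, SNAI2, ETV4 and PLCB1 were named after their values were seen. So were the markers listed at 0. The alternatives were pseudocounts of 0.1 and 1, the block, quantile normalization, upper-quartile scaling, limma without the trend, a mean FPKM of at least 1 and leaving out each sample. No lncRNA was tested, and the qPCR was not analysed here.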

Additional observations from a re-analysis of the deposited data

How the results depend on the processing

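All 4 genes kept a negative log2 fold change under each of the 13 alternatives. KIT weakened to -1.04 after quantile normalization and ran from -1.60 to -1.25 with 1 sample left out. EDN1 passed both thresholds with a pseudocount of 1 (-1.27), without the trend (-1.46) and with a mean FPKM of at least 1 (-1.46). With the pig as a block, which pairs the samples, ECE1 (-1.32) and HGF (-1.10) passed, and 1439 mRNAs in place of 930. ECE1 ran from -1.67 (past both thresholds without black sample 1) to -1.06. With 1 sample left out the number of mRNAs called ran from 35 (without white sample 2) to 847 (without black sample 1), and that of pathway genes, 14 as reported, from 0 to 12, while it was 4 after quantile normalization and 7 after upper-quartile scaling. The sign of EDNRA turned after quantile normalization (0.15) and upper-quartile scaling (0.03), and EDNRB ran from -0.21 to 0.21 with 1 sample left out. SPINT1 turned to 0.02 after upper-quartile scaling, and with 1 sample left out ST14 ran from -0.09 to 0.09, KRT1 from -0.96 to 0.86 and KRT10 from -1.55 to 0.79, the last 2 above 0 without white sample 2. The cause of these moves was not tested, and leaving out a sample also lowers the number of samples.

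Several differences in change turned their sign. KIT minus EDN1 was -0.18 with a pseudocount of 0.1 and -0.01 with upper-quartile scaling, and KIT minus ECE1 was 0.13 with a pseudocount of 1 and 0.06 after quantile normalization. EDN1 minus ECE1 was 0.00 and 0.06 under these 2 settings. With a pseudocount of 0.1, ECE1 minus HGF was 0.09 and EDN1 minus the endothelial markers -0.07. With 1 sample left out, chosen after seeing the data, the ranges were -0.47 to 0.30 for KIT minus EDN1, -0.37 to 0.14 for KIT minus ECE1, -0.61 to 0.01 for KIT minus HGF, -0.40 to 0.30 for EDN1 minus ECE1, -0.64 to -0.08 for EDN1 minus HGF, -0.46 to 0.03 for ECE1 minus HGF, 0.31 to 1.25 for KIT minus the melanocyte markers, -0.61 to -0.14 for KIT minus the mast cell markers, 0.12 to 0.68 for HGF minus the fibroblast markers, -0.17 to 0.39 for EDN1 minus the endothelial markers, -0.01 to 1.10 for KIT minus PDGFRA and -0.79 to 0.28 for KIT minus KITLG. The pairs of a member and its ligand or receptor were also added after seeing the data. Of the named genes that were not called, the block brought KITLG, MITF, SNAI2, PLCB1, MS4A2, CD163 and PDGFRA past both thresholds. FPKM without counts give no counting error, and outliers were not tested in groups of 3.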
